A study of Mus musculus with 2 samples.

Results

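The genes described here encode 8 checkpoint and costimulatory receptors: Icos, Pdcd1, Cd200r1, Havcr2, Klrg1, Ctla4, Tigit and Lag3. They were chosen by name from the 18786 genes of a single-cell count table of mouse skin innate lymphoid cells (ILCs), and all 8 had at least 1 UMI in each of the 2 cell sets of the table. A UMI is a molecular tag by which copies of the same RNA molecule are counted once. Each receptor is described by its level, by the share of cells that held a UMI of it, and by its co-detection with Il13, Il5 and Areg, the effector genes of group 2 ILCs (ILC2s).

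Skin of C57/BL6 mice was the source of the ILCs, taken on postnatal day 1 and on postnatal day 14 as 1 library per age. Both ages received the same handling per the labels: skin was digested with collagenase, CD45+ Lin- Thy1.2+ cells were sorted by flow cytometry, and the cells were captured with a 10x Genomics 5' kit. No treatment, transgene or deletion is named, and the labels do not say how many mice gave each library or which markers made up the lineage stain. Cell names carry a suffix that divides them into cell set 1 and cell set 2, and because neither suffix matches a day's label, no set is assigned to an age and every comparison is between these sets of cells.

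Checkpoint receptors are surface proteins of lymphocytes that dampen activation when they meet a ligand on another cell, and costimulatory receptors raise it. ICOS, a costimulatory receptor, supports the survival and cytokine output of ILC2s, while PD-1, the product of Pdcd1, recruits phosphatases and restrains them. PD-1 is also known as a marker of ILC progenitors, and KLRG1, an inhibitory receptor for cadherins, as a marker of mature ILC2s.

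Cells with at most 10% mitochondrial UMIs were kept, 1441 in set 1 and 3508 in set 2, with a median of 10683 and 4849 UMIs per cell. Because depth differed, shares of cells are also given with each cell thinned at random to 3000 UMIs, which left 1418 and 3015 cells. Levels are UMIs of the gene per 1000000 UMIs of the set (CPM), counted at transcript 5' ends and not divided by gene length. The sets held 16514632 and 18026148 UMIs, so 3 UMIs, the most that a count of 0 was taken to allow, equal 0.182 and 0.166 CPM. Ranges after a value are 95% intervals of counting error only, and with 1 library per age there are no replicates and no test was run. The sorted cells held the ILC2 regulator Gata3 at 577 and 593 CPM and Thy1, the sort marker, at 210 and 493 CPM. Cd3e, which defines T cells, was at 7.39 and 5.94 CPM, although Cd3g reached 457 and 533 CPM. The regulatory T cell gene Foxp3 had 11 and 2 UMIs. Cells with 3 or more UMIs of 8 cycling markers made up 35.1% of set 1 and 5.82% of set 2. This cut was made on all UMIs of a cell, so the deeper cells of set 1 pass it more easily. Together the 8 markers were at 1004 and 268 CPM.

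Icos, Pdcd1 and Cd200r1 were the receptors with the most UMIs in both sets, and they did not move together. Icos was higher in set 2, Pdcd1 slightly higher in set 2, and Cd200r1 higher in set 1. The other 5 receptors stayed below 10 CPM. On GRCm38, Icos, Ctla4 and Pdcd1 (94038305 to 94052553, minus strand) lie on chromosome 1, Cd200r1 and Tigit on 16, Klrg1 and Lag3 on 6, and Havcr2 on 11. In CPM, 2 of the 8 receptors, Cd200r1 and Lag3, were at least 2-fold lower in set 2 and 0 were at least 2-fold higher. Among all genes with 50 or more UMIs, 10.1% were at least 2-fold lower and 7.32% at least 2-fold higher. Tigit and Lag3 had fewer than 50 UMIs, so 1 of the 6 receptors that reached this minimum was lower. Scaling by TMM factors instead of total UMIs raised every log2 ratio of set 2 over set 1 by 0.15. With that scaling Ctla4 went from 0.966 to 1.07 times, to the other side of equality, and no other receptor changed direction.

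**Figure D1:**
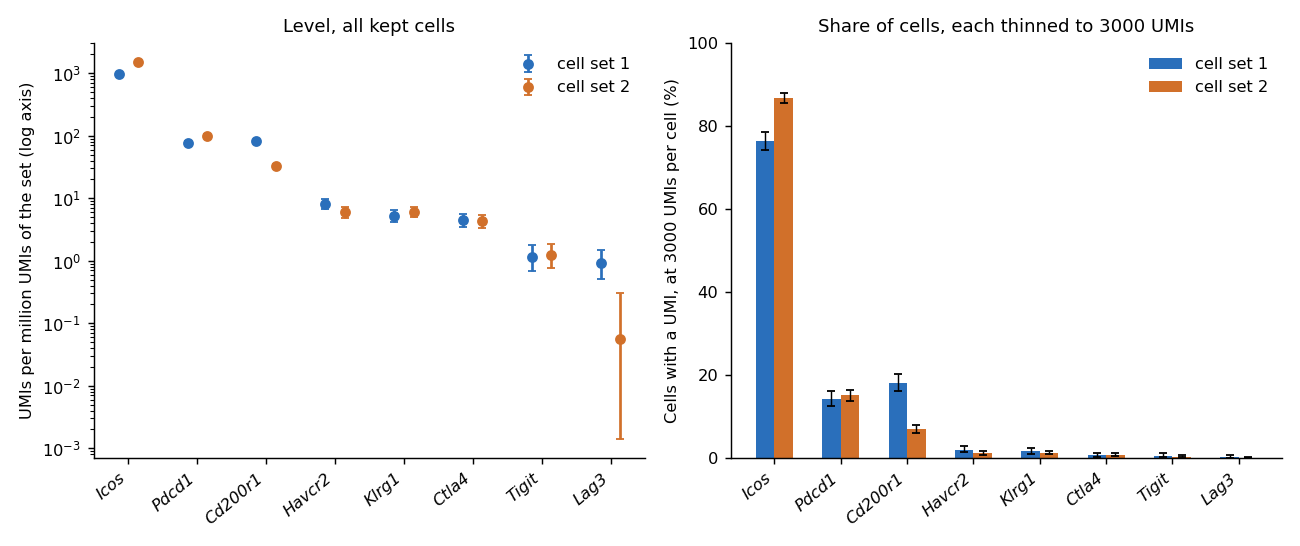
Levels of the 8 receptors in CPM on a log axis (left) and the share of cells with a UMI after thinning every cell to 3000 UMIs (right), for cell set 1 (blue) and cell set 2 (orange), with 95% intervals of counting error. Cd200r1 lies higher in set 1 in both panels, at 82.6 against 32.8 CPM, and Icos higher in set 2, at 1520 against 983 CPM.

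The kept cells fell into 8 clusters, formed without the 8 receptors among the variable genes, and the levels below are given where a cluster had at least 50 cells of a set. Clusters 0 and 5 lay almost wholly in set 1, with 786 and 145 cells, and clusters 2, 4, 6 and 7 in set 2, with 1102, 1857, 85 and 55 cells, so a cluster and a cell set cannot be told apart there. Clusters 1 and 3 held cells of both sets. Cluster 0 was led by Slc38a4, Cma1 and Igsf5, and cluster 4 by Hopx, Ccr7 and Cd70. The heat-shock and early-response genes Hspa1b and Fosb led cluster 2, and all 8 cycling markers were raised in cluster 1. Cluster 5 was led by Il22, Tyrobp and Fcer1g, and cluster 7 by Il1rl1, Il5 and Csf2 besides Klrg1. Hair keratin-associated genes led cluster 3, but 96.0% of their UMIs there came from 1 cell. Cluster 6 had a median of only 1148 UMIs per cell. No cluster was given a cell type name.

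Icos, the costimulatory member of the CD28 family, had 16235 UMIs in set 1 and 27402 in set 2. Its level was 983 CPM (968 to 998) and 1520 CPM (1502 to 1538), which is 1.55 times higher in set 2 (1.52 to 1.58). Nearly every cell carried it, with 90.6% of set 1 and 89.2% of set 2 positive on all UMIs. At 3000 UMIs per cell the shares were 76.4% (74.1 to 78.6) and 86.7% (85.5 to 87.9), so the larger share in set 2 appeared only when depth was made equal. A thinned cell held a median of 2 Icos UMIs in set 1 and 4 in set 2, with interquartile ranges of 1 to 4 and 1 to 7. Cells with 8 or more numbered 100 of 1418 in set 1 and 591 of 3015 in set 2.

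**Figure D2:**
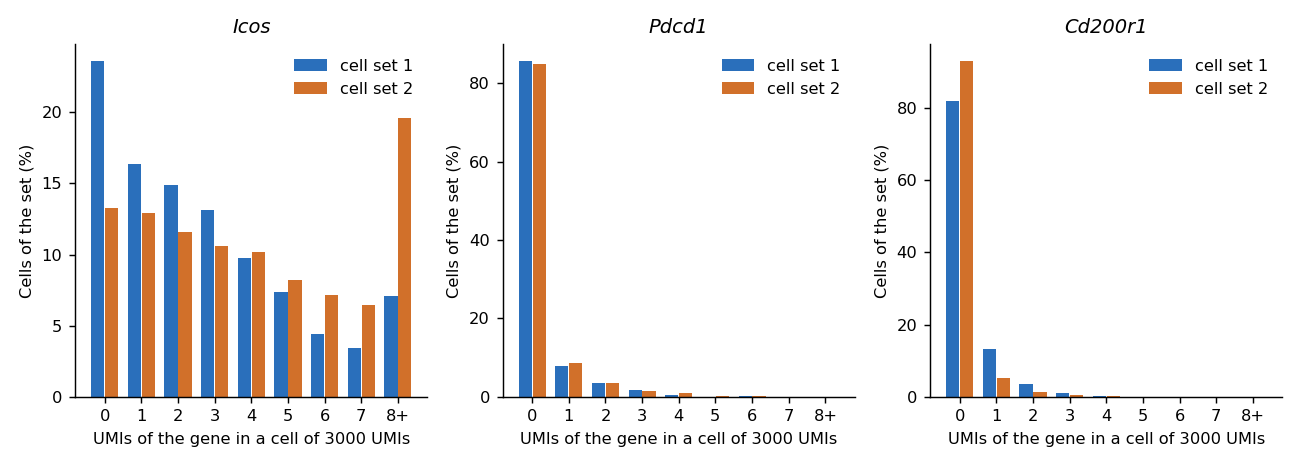
Percentage of cells by the number of UMIs of Icos, Pdcd1 and Cd200r1 in a cell thinned to 3000 UMIs, for cell set 1 (blue, 1418 cells) and cell set 2 (orange, 3015 cells). Icos spreads over the whole axis, with a median of 2 UMIs in set 1 and 4 in set 2, while most cells have 0 UMIs of Pdcd1 and Cd200r1.

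Across clusters Icos varied 8.46-fold. It was highest in cluster 6 of set 2 at 2217 CPM (1945 to 2515) and in cluster 4 of set 2 at 2003 CPM (1976 to 2031), whose intervals overlap. Cluster 1 of set 2 followed at 1409 CPM (1342 to 1478) and cluster 7 at 1274 CPM (1149 to 1408), again with overlapping intervals. Clusters 0 and 1 of set 1 were alike at 1086 and 1087 CPM, cluster 2 of set 2 stood at 867 CPM, and cluster 5 of set 1 at 506 CPM. Cluster 3 had the least, at 262 CPM (233 to 294) in set 1 and 338 CPM (303 to 375) in set 2. Even there, 47.0% and 46.5% of thinned cells held an Icos UMI. In both clusters shared by the sets, Icos was higher in set 2.

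Pdcd1, which encodes PD-1, had 1282 UMIs in set 1 and 1814 in set 2, or 77.6 CPM (73.4 to 82.0) and 100.6 CPM (96.1 to 105). The ratio of set 2 over set 1 was 1.30 (1.21 to 1.39). The share of positive cells went the other way on all UMIs, 26.02% against 18.9%, and was 14.2% (12.5 to 16.2) against 15.1% (13.8 to 16.4) at 3000 UMIs, where the intervals overlap. At 5000 UMIs per cell it was 18.4% in set 1 and 23.9% in set 2, with intervals apart. No order of the sets is read from the share on all UMIs, since it goes against the level.

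Within set 1, Pdcd1 was concentrated in the Il22-led cluster 5. These 145 cells, 10.1% of the set, held 30.8% of its Pdcd1 UMIs, at 331 CPM (299 to 365). Clusters 0 and 1 of set 1 stood at 59.3 CPM (54.3 to 64.8) and 64.8 CPM (58.3 to 71.8), with overlapping intervals. In set 2 the level was 323 CPM (262 to 393) in cluster 7, 152 CPM (131 to 176) in the cycling cluster 1, 136 CPM (129 to 143) in cluster 4 and 24.97 CPM (20.8 to 29.7) in cluster 2. Clusters 5 and 7 thus had the highest Pdcd1 levels, and their intervals overlap. Cluster 3 was lowest in both sets, at 9.71 CPM (4.84 to 17.4) and 5.85 CPM (2.15 to 12.7), and 2.01% and 1.08% of its thinned cells were positive. Without clusters 5 and 7 the ratio of set 2 over set 1 rose to 1.67. Among cells with fewer than 3 cycling UMIs, a cut made on all UMIs of a cell and not at equal depth, it was 1.08.

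The genes that led the Pdcd1-positive cells differed between the sets. In set 1 they were Hbb-bs, a haemoglobin gene, Hopx, Il22, Slc15a3 and Car2. Il22, a cytokine gene of type 3 lymphocytes, was at 347 CPM in the 375 positive cells and 87.2 CPM in the rest. Hbb-bs was at 232 against 29.0 CPM, yet 30.9% of positive and 26.2% of negative cells held it. The erythroid list summed to 296 CPM in positive and 54.0 CPM in negative cells of set 1, with 4 of 4 markers higher, and to 12.4 and 274 CPM in set 2, with 0 higher. Its part in the result was not tested. In set 2 the leading genes were Plac8, Tnfrsf9, Il5, Fam46a and Lgals3. Il5 was at 465 CPM in the 664 positive cells and 169 CPM in the others, and Tnfrsf9, which encodes the costimulatory receptor 4-1BB, at 241 against 84.4 CPM. Plac8 UMIs lay in only 1.66% of the positive cells. The dendritic cell list summed to 642 CPM in positive and 332 CPM in negative cells of set 2, and Flt3, Cd207, Itgax and Cd209a were at 0 in all kept cells of that set. Of the 7 measured ILC precursor markers other than Pdcd1, 6 were higher in the positive cells of set 1 and 5 in those of set 2. This list summed to 633 against 433 CPM in set 1 and 628 against 549 CPM in set 2. The ILC3 list summed to 766 against 361 CPM in set 1, with 9 of 12 markers higher, and to 695 against 666 CPM in set 2. Of the 375 positive cells of set 1, 90 lay in cluster 5, where 4 of 7 precursor and 7 of 12 ILC3 markers were raised. The part of that cluster was not tested, and the share of all genes higher in positive cells was not counted. The cycling list summed to 406 against 224 CPM in set 2, with 8 of 8 higher, and to 892 against 1052 CPM in set 1, with 0 higher. Positive cells were also deeper, with a median of 12758 against 10288 UMIs in set 1 and 5952 against 4621 in set 2.

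Cd200r1 encodes the inhibitory receptor for CD200, a surface protein of many stromal and epithelial cells. It had 1364 UMIs in set 1 and 591 in set 2, or 82.6 CPM (78.3 to 87.1) and 32.8 CPM (30.2 to 35.5). Set 1 was 2.52 times higher (2.29 to 2.78). Its share of positive cells was 39.3% and 10.0% on all UMIs and 18.1% (16.2 to 20.2) and 6.97% (6.08 to 7.93) at 3000 UMIs. It was the receptor whose share was larger in set 1, with intervals apart, at each of the 3 thinned depths tried. The related gene Cd200r4 was at 4.36 and 1.89 CPM, and how reads shared by such near copies were assigned is a step that the sources used here do not describe.

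The excess of Cd200r1 in set 1 was found in both clusters that the sets share. In the cycling cluster 1 it was at 79.0 CPM (71.9 to 86.8) in set 1 and 22.7 CPM (14.97 to 33.0) in set 2, and in cluster 3 at 31.8 CPM (22.2 to 44.0) and 7.80 CPM (3.37 to 15.4). Cluster 0 of set 1 stood at 97.9 CPM (91.3 to 105). The highest level of all was nevertheless in set 2, in the 55 cells of cluster 7, at 209 CPM (161 to 268). Cluster 5 of set 1 and clusters 6, 4 and 2 of set 2 ranged from 46.2 down to 19.4 CPM. Genes leading the Cd200r1-positive cells of set 1 were Hs3st1, Rab30, Pparg, Ptpn13 and the growth factor gene Csf2. In set 2 they included Il1rl1, which encodes the IL-33 receptor, Ier3, Il5 and Hes1. Il1rl1 was at 84.4 CPM in the 351 positive cells of set 2 and 11.7 CPM in the others.

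**Figure D3:**
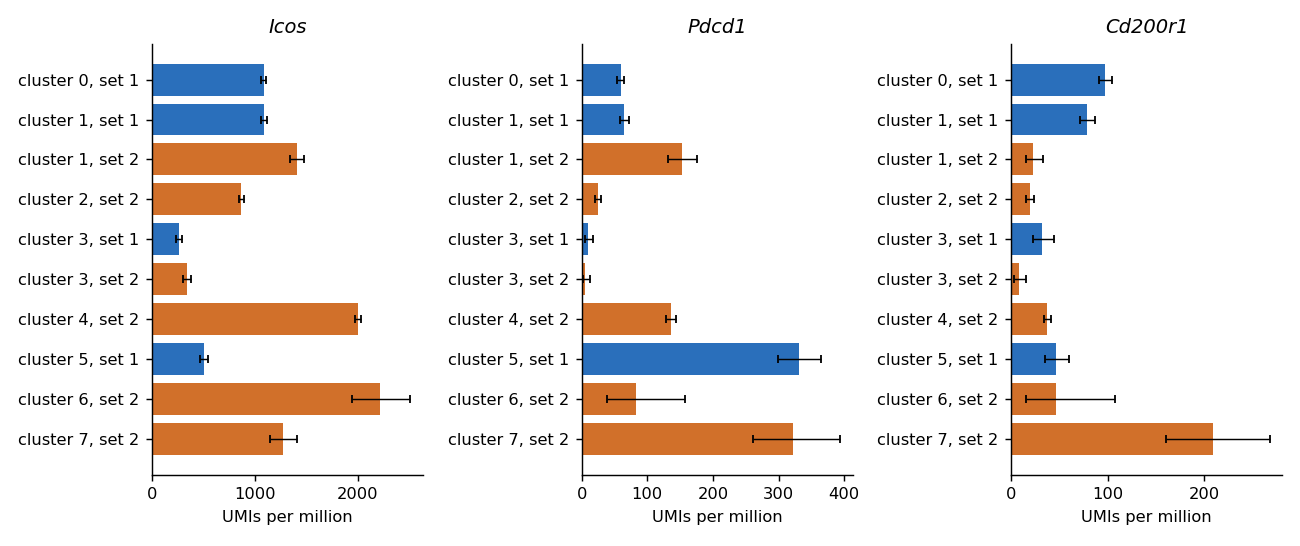
Levels of Icos, Pdcd1 and Cd200r1 in CPM, on linear axes that differ between panels, in every cluster with at least 50 cells of a set (blue for set 1, orange for set 2), with 95% intervals of counting error. Pdcd1 is highest in cluster 5 of set 1 (331 CPM) and cluster 7 of set 2 (323 CPM), Cd200r1 in cluster 7 (209 CPM), and Icos and Pdcd1 are lowest in cluster 3.

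Klrg1 was at 5.21 CPM (4.17 to 6.43) in set 1 and 6.10 CPM (5.02 to 7.35) in set 2, from 86 and 110 UMIs, a ratio of 1.17 (0.876 to 1.57). Similar levels hid different distributions. In set 2, 60.0% of the UMIs lay in cluster 7, where Klrg1 reached 219 CPM (170 to 279), and the remaining cells stood at 2.48 CPM. Set 1 had no cell in cluster 7, and 61 of its 86 Klrg1 UMIs lay in cluster 0. Without clusters 5 and 7, of which cluster 5 held 2 Klrg1 UMIs, the ratio of set 2 over set 1 was 0.45. On all UMIs, 24 of 67 Klrg1-positive cells in set 1 (35.8%, 24.5 to 48.5) and 32 of 57 in set 2 (56.1%, 42.4 to 69.3) also held Il1rl1. Of Klrg1-negative cells, 6.62% and 2.52% did. Klrg1-positive cells were deeper, with a median of 13147 against 10573 UMIs in set 1 and 5474 against 4837 in set 2. Of the 57 in set 2, 28 lay in cluster 7, which Il1rl1 led, and the part of that cluster was not tested. The Klrg1-positive cells were led by Cxcl3, Il1rl1, Il5, Pparg and Gfpt1 in set 1 and by Il1rl1, Lgals3, Csf2, Fam46a and Ccdc184 in set 2. Il1rl1 was thus among the leading genes in both, while Klrg1 itself was found in 1.62% and 1.26% of thinned cells.

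Havcr2, which encodes TIM-3, was at 8.11 CPM (6.80 to 9.61) in set 1 and 5.99 CPM (4.91 to 7.23) in set 2, from 134 and 108 UMIs. The ratio of set 2 over set 1 was 0.738 (0.568 to 0.959). In set 2 it was at 23.3 CPM (9.36 to 48.0) in cluster 7, 18.5 CPM (2.24 to 66.7) in cluster 6, 13.5 CPM (7.69 to 21.9) in the cycling cluster 1, 7.25 CPM (5.69 to 9.12) in cluster 4 and 1.35 CPM (0.545 to 2.79) in cluster 2. In set 1 cluster 1 stood at 11.8 CPM (9.09 to 14.9) and cluster 0 at 7.21 CPM (5.51 to 9.26). The histone genes Hist1h1b and Hist1h2ap, which are expressed in S phase, were among the 5 genes leading the Havcr2-positive cells of set 1. The median depth of those cells was 15693 UMIs against 10412.5 in the others.

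Ctla4, an inhibitory competitor of CD28, had 73 UMIs in set 1 and 77 in set 2, or 4.42 CPM (3.46 to 5.56) and 4.27 CPM (3.37 to 5.34). In set 1 a cell with 18 UMIs held 24.7% of them and 10 cells 80.8%, whereas in set 2 no cell held more than 5. Without that cell of 18 UMIs the ratio of set 2 over set 1 went from 0.966 to 1.28. It lies 62.1 kb from Icos on chromosome 1 of GRCm38 (Ctla4 at 60887000 to 60915832, Icos at 60977927 to 61000320, both on the plus strand). At 3000 UMIs, 8 of 9 Ctla4-positive cells of set 1 and 25 of 25 of set 2 held Icos, beside 76.4% and 86.7% of all cells. On all UMIs these were 22 of 22 and 56 of 57, beside 90.6% and 89.2%. Foxp3, the defining gene of regulatory T cells that carry much Ctla4, had 1 UMI and Cd3e 3 UMIs, each in 1 cell, among the 22 positive cells of set 1, and both had 0 UMIs among the 57 of set 2. All 3508 kept cells of set 2 held only 2 Foxp3 and 107 Cd3e UMIs, so these counts of 0 say little. Macrophage and neutrophil markers had 0 UMIs in the positive cells of both sets. Those lists summed to only 4.24 and 0.848 CPM in all of set 1 and 1.16 and 2.66 CPM in set 2, so a count of 0 in so few cells says little. The keratinocyte, mast cell and fibroblast lists had 49, 22 and 20 UMIs in the positive cells of set 1, and 6, 0 and 0 in those of set 2.

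Tigit and Lag3 were near the limit of detection. Tigit, an inhibitory receptor for nectins, had 19 and 22 UMIs, or 1.15 and 1.22 CPM, a ratio of 1.06 (0.548 to 2.07). In set 2, 19 of its 22 UMIs lay in cluster 4. Lag3, an inhibitory receptor related to CD4, had 15 UMIs in 11 cells of set 1 and 1 UMI in set 2. Its level in set 1 was 16.4 times that in set 2, with a counting interval of 2.52 to 689. Of the 15 UMIs, 8 lay in cluster 5, and 9 of the 11 cells also held Pdcd1. At 3000 UMIs, 0 of 3015 cells of set 2 held Lag3, and 3 cells, the most that a count of 0 was taken to allow, would be 0.0995%.

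Il13, Il5 and Areg were at 242, 146 and 638 CPM in set 1 and at 362, 241 and 991 CPM in set 2. Co-detection was measured at 3000 UMIs, as the share of receptor-positive cells among cytokine-positive cells divided by that among cytokine-negative cells. Only Icos, Pdcd1 and Cd200r1 had 30 or more positive cells in set 1, which gives 9 pairs, and Havcr2 and Klrg1 joined them in set 2, which gives 15. A ratio of at least 1.5 in either direction was counted.

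In set 1, Pdcd1 was rarer in cells that held Il13 than in cells that did not. It was held by 6.11% (3.95 to 8.95) of 393 Il13-positive cells and by 17.4% (15.1 to 19.8) of 1025 Il13-negative cells, a ratio of 0.352. The cells of cluster 5, with much Pdcd1, had only 19 Il13 UMIs, and without that cluster the shares were 5.64% and 13.0%. Within cluster 0 they were 6.17% (3.50 to 9.98) and 12.4% (9.69 to 15.5), with intervals that just overlap. Within cluster 1 they were 6.48% (2.65 to 12.9) and 19.2% (14.3 to 24.9), with intervals apart. The direction was thus the same inside each of these clusters. Pdcd1 with Il13 was the 1 pair of 9 that was at least 1.5-fold lower. Of all genes in at least 30 cells of set 1, 9.61% were at least 1.5-fold lower in Il13-positive cells, 16.7% in Il5-positive and 9.25% in Areg-positive cells. With Il5 the Pdcd1 shares were 13.3% against 14.4%, but 12.9% against 10.4% without cluster 5 and 14.1% against 9.61% within cluster 0, with overlapping intervals in each case. With Areg they were 12.3% against 15.5%.

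None of the 9 pairs of set 1 reached 1.5-fold higher, where 4.23%, 5.55% and 3.57% of genes did for Il13, Il5 and Areg. Cd200r1 came close with Il13 and Il5, at ratios of 1.45 and 1.44, and was at 1.26 with Areg. It was held by 23.4% (19.3 to 27.9) of Il13-positive and 16.1% (13.9 to 18.5) of Il13-negative cells. The intervals of its shares overlap for Il5 and for Areg, and for Il13 within cluster 0 and within cluster 1. Icos was at 1.06, 1.22 and 1.16 with Il13, Il5 and Areg, with little room to differ since most cells had it. On all UMIs, Cd200r1 passed 1.5 with all 3 cytokines.

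In set 2, 8 of 15 pairs were at least 1.5-fold higher and 0 were lower. By cytokine these were 2 of 5 receptors with Il13, 4 of 5 with Il5 and 2 of 5 with Areg, where 3.76%, 5.65% and 2.81% of all genes were at least 1.5-fold higher. The shares of genes that were at least 1.5-fold lower were 3.58%, 12.6% and 6.24%. Il5 gave the widest differences. Pdcd1 was held by 27.0% (23.7 to 30.6) of 659 Il5-positive cells and 11.8% (10.5 to 13.1) of 2356 Il5-negative cells, a ratio of 2.30. Cd200r1 was held by 14.0% (11.4 to 16.8) and 5.01% (4.16 to 5.97), a ratio of 2.79. Havcr2 followed with 2.28% and 0.806%. Klrg1 was held by 4.70% (3.22 to 6.61) of Il5-positive and 0.297% (0.120 to 0.611) of Il5-negative cells, and 31 of the 38 Klrg1-positive cells held Il5. Of these 38 cells, 21 lay in cluster 7, where 94.1% of cells held Il5, and without that cluster the ratio went from 15.8 to 5.50, from 17 Klrg1-positive cells of which 10 held Il5.

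The link of Pdcd1 with Il5 in set 2 did not rest on cluster 7 alone. Without that cluster the shares were 25.7% and 11.8%, and within cluster 4 they were 28.1% (24.1 to 32.3) and 17.97% (15.8 to 20.3). Within cluster 2 the Pdcd1 shares were 7.69% and 4.33%, with overlapping intervals, where 78 of 933 thinned cells held Il5. Cd200r1 within cluster 4 was held by 13.1% of Il5-positive and 5.77% of Il5-negative cells. Within cluster 2 it was held by 5.13% and 4.56%, again with overlapping intervals. With Il13, by contrast, Pdcd1 shares in set 2 were 14.5% and 15.4%, with overlapping intervals, and the counted pairs were Cd200r1 at 1.502 and Klrg1 at 1.65. With Areg the counted pairs were Cd200r1 at 1.90 and Klrg1 at 2.60, and Pdcd1 stood at 1.40. Without cluster 7, Klrg1 was at 1.49 with Il13 and 1.37 with Areg, below 1.5 in both cases, whereas Cd200r1 was at 1.51 and 1.78. Icos remained between 0.971 and 1.09 with all 3.

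**Figure D4:**
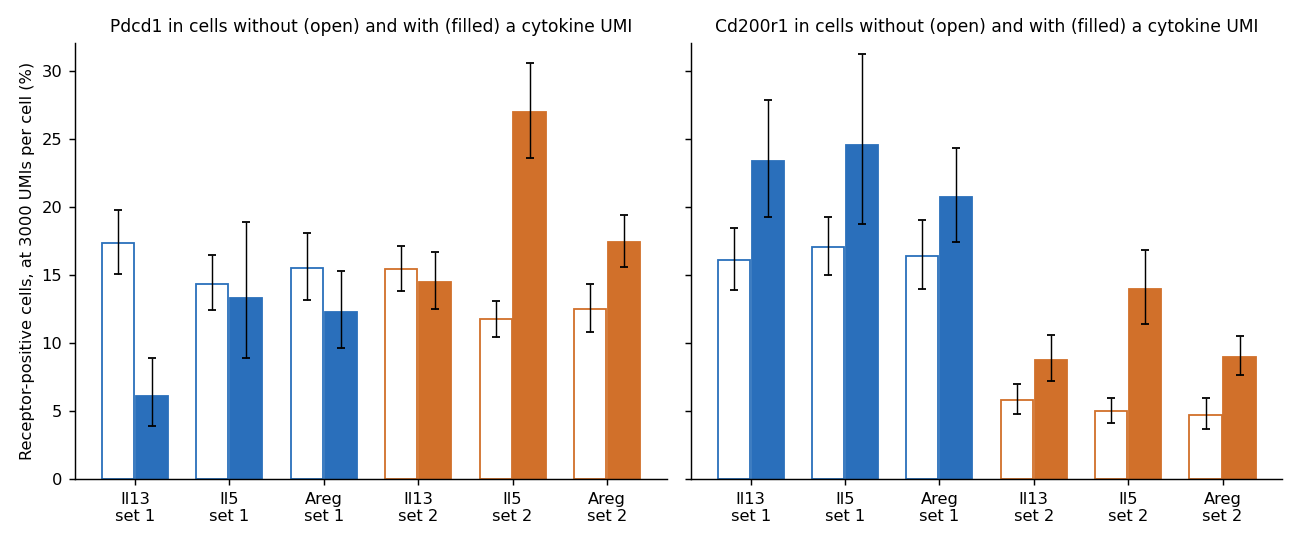
Share of cells with a UMI of Pdcd1 (left) and Cd200r1 (right) among cells without (open bars) and with (filled bars) a UMI of Il13, Il5 or Areg, in cell set 1 (blue) and cell set 2 (orange), every cell thinned to 3000 UMIs, with 95% intervals of counting error. Pdcd1 is at 6.11% in Il13-positive cells of set 1 and at 27.0% in Il5-positive cells of set 2, while every filled Cd200r1 bar is taller than the open bar beside it.

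Cells were also ordered by how many of the 3 cytokines they held. In set 2, the share with Pdcd1 was 11.4% (9.38 to 13.8) with 0 cytokines, 13.6% with 1, 17.8% with 2 and 27.9% (22.1 to 34.2) with 3. In set 1 it was 17.8% (14.98 to 21.01), 13.6%, 6.40% (3.70 to 10.2) and 12.9% (5.74 to 23.9), the last in 62 cells. Cd200r1 increased along this order in both sets, from 15.2% to 30.6% in set 1 and from 4.08% to 16.4% in set 2. The level of Icos in set 1 went from 801 CPM (762 to 842) with 0 cytokines to 1495 CPM (1324 to 1681) with 3, while in set 2 it was 1554 CPM and 1680 CPM at the ends and lower between them. Detection of any gene is likelier in a deeper cell, and thinning held this equal. Cluster make-up was not held equal. Among 143 thinned cells of cluster 5 in set 1, 45.5% held Pdcd1, while only 3 held Il13 and 1 held Il5. Icos was found in 51.7% of them and in 47.0% of cluster 3 in set 1, beside 76.4% of the whole set. In cluster 7, Pdcd1 was found in 41.2% and Cd200r1 in 35.3%, where 94.1% held Il5 and 92.2% Areg. The part of these clusters in the order was not tested.

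**Figure D5:**
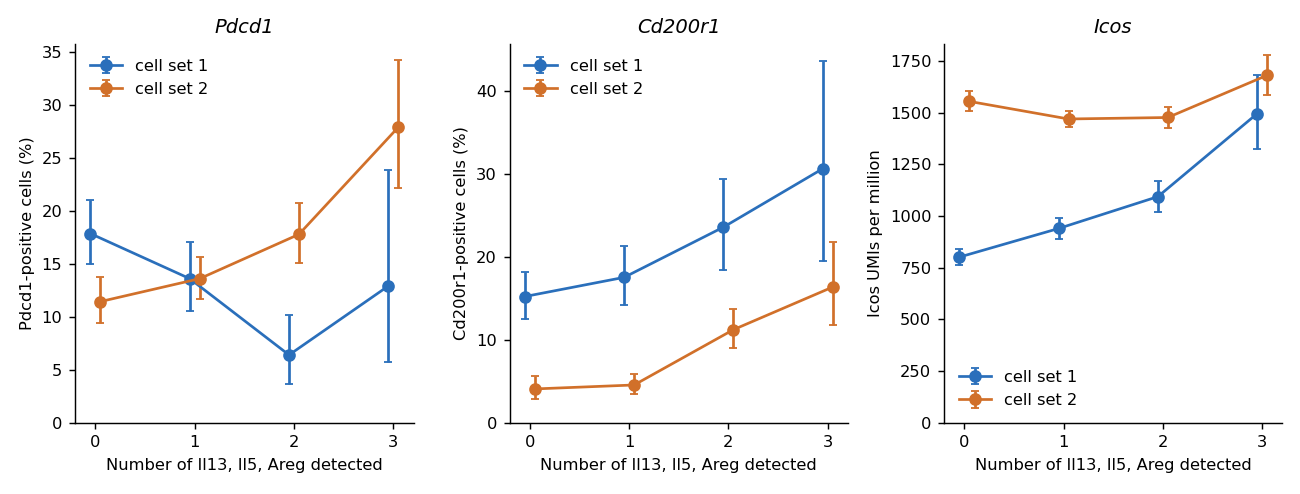
Share of Pdcd1-positive and Cd200r1-positive cells in percent, and the level of Icos in CPM, by the number of Il13, Il5 and Areg detected in a cell thinned to 3000 UMIs, for cell set 1 (blue) and cell set 2 (orange), with 95% intervals of counting error. Pdcd1 ends at 27.9% in set 2 and at 12.9% in set 1, whereas Cd200r1 is highest with 3 cytokines in both sets.

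At 3000 UMIs, 28.2% (25.9 to 30.6) of set 1 and 21.5% (20.04 to 23.0) of set 2 held 2 or more of the 8 receptors. Without Icos the shares fell to 3.67% (2.75 to 4.78) and 2.75% (2.20 to 3.40), so most combinations were Icos with 1 other. A cell held at most 4 of them in either set. Among the 28 receptor pairs, Pdcd1 with Klrg1 in set 2 was seen in 18 cells where 5.73 would be found if the genes were independent, a ratio of 3.14 (1.86 to 4.96). Cluster 7, where 41.2% of cells held each of these genes, holds 21 of the 38 Klrg1-positive cells. In set 1 the same pair was seen in 2 cells against 3.28, a ratio of 0.610 (0.0739 to 2.21). Cd200r1 with Klrg1 was seen in 12 cells against 2.65 in set 2, a ratio of 4.53 (2.34 to 7.92), and in 10 against 4.17 in set 1, a ratio of 2.40 (1.15 to 4.41). In cluster 7, 35.3% of cells held Cd200r1 as well, and the part of that cluster in the Klrg1 pairs of set 2 was not tested. Pdcd1 with Havcr2 was seen in 12 against 5.13 in set 2, a ratio of 2.34 (1.21 to 4.09). Pdcd1 and Cd200r1, the most frequent receptors after Icos, were seen together in 30 cells against 36.6 in set 1 and in 37 against 31.7 in set 2, with intervals that include equality.

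Other genes of these pathways were taken from 4 lists, counting members with at least 20 UMIs in both sets together. Over all 12026 such genes the median log2 ratio of set 2 over set 1 was -0.13, 8.88% were at least 2-fold higher and 12.2% at least 2-fold lower. Of 20 other checkpoint and costimulatory receptors, 13 were higher and 7 lower in set 2, 10 and 3 of them by at least 2-fold, with a median of 0.63. Btla, an inhibitory receptor for HVEM, was at 4.97 and 28.7 CPM. The costimulatory receptor gene Tnfrsf4 (OX40) was at 24.2 and 116 CPM, Cd27 at 72.8 and 195 CPM, and Cd101 at 9.63 and 47.3 CPM.

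Of 13 ligand genes, 8 were higher and 5 lower, 4 and 0 by at least 2-fold, with a median of 0.35. Both ligands of PD-1 were among the 4: Cd274 was at 30.3 and 130 CPM, a ratio of 4.28 (3.89 to 4.72), and Pdcd1lg2 at 13.0 and 52.2 CPM. Cd86, a CTLA-4 ligand, was at 2.36 and 8.21 CPM. Hmgb1, a TIM-3 ligand and chromatin protein, was at 1268 and 791 CPM. Of 16 signalling partners 7 were higher and 9 lower, 1 in each direction by 2-fold: the kinase gene Lck was at 14.4 and 87.1 CPM, and Trat1, an adaptor that binds CTLA-4, at 17.5 and 6.44 CPM. Dok2 was at 62.4 and 40.4 CPM and Vav1 at 14.0 and 23.1 CPM. With TMM scaling 10 of 13 ligands and 10 of 16 partners were higher, and the partners' median moved from -0.05 to 0.10.

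Of 18 transcription factors tied to checkpoint genes in T cells, 12 were higher and 6 lower, 6 and 2 by at least 2-fold, with a median of 0.26. Bcl6 was at 16.2 and 76.0 CPM, Irf4 at 5.09 and 26.5 CPM and Nr4a3 at 97.7 and 308 CPM. Nr4a2 went the other way, at 385 and 150 CPM, and Nr4a1 differed little, at 713 and 759 CPM. These immediate-early factors of the Nr4a family are induced by receptor signals and are tied to Pdcd1 expression in exhausted T cells.

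Over the 10 combinations of cluster and set with at least 50 cells, the genes whose log2(CPM + 10) profile was most like that of a receptor were found by Pearson's r, as a description, since the points share libraries and clusters. For Icos these were Dusp10 (0.94), Ifngr2 (0.94) and Cxcl16 (0.94). Larp1b (0.96), Gch1 (0.96) and Gabarapl1 (0.95) were nearest to Pdcd1, and Npnt (0.95), Kat5 (0.95) and Acer2 (0.92) to Cd200r1. Klrg1 ran with Lgals3 (0.96), Acsl4 (0.95) and Il1rl1 (0.94), and Havcr2 with Ndrg1 (0.95), Chic2 (0.94) and Srebf2 (0.93). For Ctla4 the nearest were Trim25 (0.93), Fam76a (0.92) and Icos (0.90). The profiles of Klrg1 and Ctla4 rested on 196 and 150 UMIs. With log2(CPM + 1) instead, only Lgals3 stayed among the nearest to Klrg1 and only Icos among the nearest to Ctla4. Tigit and Lag3 had too few UMIs, 41 and 16, for their profiles to be compared.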

How the data were processed

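The deposited table holds raw UMI counts of genes in cells, made by the authors with Cell Ranger 3.1.0 and Seurat 4.1.0 on mm10, per the submitters' processing notes. The sources used here do not give the settings of these tools. The counts were taken as 1 pooled sample and divided by name suffix, and 4 barcodes occurred in both sets. Members and gene lists were chosen with earlier results of these data known. Scrublet called 7 and 0 doublets, so few that it may not have worked. The sources used here do not say whether doublets were taken out before deposit. None were removed for the main results, and the part of doublets in co-detection was not tested. Counts were scaled to 10000 per cell, and clusters were found by Leiden at resolution 0.5 on 15 neighbours, 30 principal components and 2000 variable genes (scanpy 1.11.5, scikit-learn 1.9.0). TMM factors came from edgeR 4.0.16. Intervals are exact Poisson for CPM, exact binomial for ratios and Clopper-Pearson for shares. UMIs of a gene gather in the same cells, so these are narrower than the true error. The calculation was tested on simulated counts. Positions are from GENCODE M21. Named genes were the receptors, the cytokines, up to 4 per list by size of change, the 3 nearest profiles and the 5 leading genes of receptor-positive cells (at least 50 cells), of which some are not given.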

Additional observations from a re-analysis of the deposited data

Results flagged for a closer look

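For 3 receptor and cytokine pairs the ratio of shares at 3000 UMIs lay on opposite sides of 1 in the cell sets, and the difference between the sets was not tested. Pdcd1 with Il5 was at 0.927 in set 1 and 2.30 in set 2, but without cluster 5 it was at 1.24 in set 1, on the same side as set 2. Pdcd1 with Areg was at 0.791 and 1.40, and Icos with Il13 at 1.06 and 0.971. On all UMIs the Pdcd1 ratios of set 1 were above 1, at 1.23 with Il5 and 1.08 with Areg.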

How the results depend on the processing

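The shares depended most on depth. Receptors with a larger share in set 1 and intervals apart numbered 5 on all UMIs (Pdcd1, Cd200r1, Havcr2, Klrg1 and Lag3), 3 when positive meant 2 UMIs, and 1, Cd200r1, at 3000, 2000 or 5000 UMIs. Those larger in set 2 numbered 0 on all UMIs, 1 at 3000 and at 2000, and 2 at 5000. The share of Pdcd1, set 2 minus set 1, changed sign to 0.846 percentage points at 3000 UMIs and 5.50 at 5000. The count of receptors at least 2-fold lower was 1 with at least 50 UMIs. It was 3 in Y-only cells, where Ctla4 stood at 0.47, and 3 without clusters 5 and 7, the latter chosen after seeing the data. Havcr2 turned to 1.05 times in Xist-only cells. Of the 9 pairs of set 1 with 30 or more cells at 3000 UMIs, 0 were at least 1.5-fold higher there, 3 on all UMIs, 2 at 5000 and 1 with 2 cytokine UMIs. In set 2 they numbered 2 of 15 by observed over expected in 5 depth bins of unthinned cells. That measure is not a ratio of shares and lies nearer 1, so the same cut of 1.5 is stricter for it. For Cd200r1 with Il13 in set 1 at 3000 UMIs, for example, it was 1.29 where the ratio of shares was 1.45. The pairs of set 2 numbered 7 by a Mantel-Haenszel ratio of shares over the same bins, chosen after seeing the data. The highest over lowest cluster for Pdcd1, 56.5, was 18.01 at resolution 0.3, and for Cd200r1, 26.8, it was 5.29 at resolution 0.3, 11.9 with 15 components and 10.99 with the receptors among the variable genes. Cells with 2 or more receptors, 28.2% and 21.5% at 3000 UMIs, made up 56.1% and 27.9% on all UMIs, and 3.67% and 2.75% at 3000 UMIs without Icos. The ligand median was 0.063 at 3000 UMIs. Of the 88 level ratios recomputed, 68 moved by less than their counting interval, as did 171 of 216 co-detection ratios and 17 of 48 shares. These tallies include removal of the Scrublet calls, which numbered 0 in set 2 and so left its values unchanged. Of the 8 lists of nearest profiles, 2, those of Klrg1 and Ctla4, moved with a pseudocount of 1. No paired analysis was possible because each day has 1 library and no test was run.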
